A study of Mus musculus with 13 samples.

Results

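The GABA-A receptor is the main fast-acting inhibitory receptor for the transmitter GABA. The levels of 7 of its subunit genes, Gabra2, Gabra3, Gabra5, Gabrb1, Gabrb2, Gabrg1 and Gabrg3, were followed here among the 48709 genes counted in laser-captured lumbar motoneurons. Gabrg1 was picked for its low level in the AAV-miR SOD1 libraries, that is, it was chosen on measured values of these data, and the other 6 genes were taken as members of its family. The values of Gabrg1 in AAV-miR SOD1 are therefore a description with no test, and the other members were tested together with all genes. All 13 mice carried the SOD1-G93A transgene, a mutant human SOD1 used as a model of amyotrophic lateral sclerosis, and were 65 days old, and no mice without the transgene enter these comparisons. In the AAV-miR SOD1 group (n = 4), an adeno-associated virus (AAV) given into the cerebral ventricles on postnatal day 2 carried an artificial microRNA against human SOD1 that the vector expresses in astrocytes, not in the motoneurons measured. The AAV-miR ctrl group (n = 5) received the control vector by the same route, and littermates without an injection formed the non-injected group (n = 4). Each library came from 500 motoneurons pooled from a single mouse, cut from sections stained with cresyl violet.

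GABA-A receptors are pentameric chloride channels, most often assembled from alpha, beta and gamma subunits. GABA binds between an alpha and a beta subunit, the benzodiazepine site lies between an alpha and a gamma subunit, and the gamma subunits take part in holding receptors at synapses. The alpha subunit sets much of the affinity for GABA, the time course of the current and the place of the receptor on the cell. In spinal motoneurons, GABA-A receptors act beside glycine receptors at contacts from inhibitory interneurons, and the chloride exporter KCC2 (Slc12a5) sets whether the current hyperpolarises the cell.

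On GRCm38, 3 of the 7 genes lie in a cluster on chromosome 5: Gabrg1 (ENSMUSG00000001260, 70751047 to 70842617, minus strand), Gabra2 (ENSMUSG00000000560, 70957597 to 71095849, minus strand) and Gabrb1 (ENSMUSG00000029212, 71658113 to 72149037, plus strand). Gabrg1 and Gabra2 are 115.0 kb apart, and Gabra2 and Gabrb1 562.3 kb. Gabra5 (ENSMUSG00000055078, 57407672 to 57510059) and Gabrg3 (ENSMUSG00000055026, 56716465 to 57387188) neighbour each other on the minus strand of chromosome 7, 20.5 kb apart. Gabrb2 (ENSMUSG00000007653) lies on chromosome 11 from 42419757 to 42629028 on the plus strand, and Gabra3 (ENSMUSG00000031343) on chromosome X from 72432681 to 72656848 on the minus strand. Reads were counted over whole genes, so no exon, UTR or splice form can be told from another. In the annotation, 148 exonic bases of Gabra5 and 46 of Gabrb1 are shared with exons of another gene, and since the strand setting of the counting is not given in the sources used here, reads in those stretches are uncertain.

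The promoters of the cluster are shown because the neighbouring genes differ widely in base composition. RefSeq entries (GRCm38.p6) were found for 7 of 7 members, some with several starts. The 250 bases before the start are printed 5′ to 3′ on the gene's strand, in lower case, with each CG dinucleotide in capitals. They are Gabrg1 at chr5:70842618-70842867 (minus strand), Gabra2 at chr5:71095850-71096099 (minus strand), Gabrb1 at chr5:71657671-71657920 (plus strand) and Gabra3 at chrX:72656920-72657169 (minus strand).
Gabrg1: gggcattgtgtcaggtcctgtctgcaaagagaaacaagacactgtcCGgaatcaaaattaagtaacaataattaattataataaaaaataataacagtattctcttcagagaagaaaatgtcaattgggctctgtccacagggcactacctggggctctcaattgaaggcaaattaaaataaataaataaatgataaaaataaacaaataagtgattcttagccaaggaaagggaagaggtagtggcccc
Gabra2: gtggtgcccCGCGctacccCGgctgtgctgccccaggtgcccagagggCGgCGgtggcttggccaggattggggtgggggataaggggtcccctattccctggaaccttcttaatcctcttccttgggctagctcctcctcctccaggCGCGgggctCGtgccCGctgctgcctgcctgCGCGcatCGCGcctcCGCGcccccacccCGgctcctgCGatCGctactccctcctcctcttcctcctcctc
Gabrb1, the first of its starts: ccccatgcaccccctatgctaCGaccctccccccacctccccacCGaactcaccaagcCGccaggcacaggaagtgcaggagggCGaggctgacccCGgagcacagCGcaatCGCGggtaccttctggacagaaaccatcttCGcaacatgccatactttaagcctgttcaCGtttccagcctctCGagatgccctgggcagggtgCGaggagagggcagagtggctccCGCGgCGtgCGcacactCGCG
Gabra3, the first of its starts: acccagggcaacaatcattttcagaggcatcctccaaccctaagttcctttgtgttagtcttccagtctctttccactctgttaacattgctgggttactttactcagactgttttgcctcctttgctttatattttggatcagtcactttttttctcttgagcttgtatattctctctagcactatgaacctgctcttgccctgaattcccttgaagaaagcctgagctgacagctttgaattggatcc

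The window before Gabrg1 was 35.6% G and C and held 1 CG, while that before its neighbour Gabra2 was 70.0% G and C with 18 CG, as many as before the first Gabrb1 start (64.4% G and C). Both Gabra3 windows held 0 CG. Over 32851 mouse promoter windows of the same length, the median was 52.4% G and C and 6 CG, and 18.8% of windows held at most 1 CG. The windows of Gabra5 (56.4%, 9 CG) and Gabrg3 (60.4%, 9 CG) and the first of Gabrb2 (58.8%, 8 CG) lay above both medians. The letters TATAAA, searched on both strands, occurred in the Gabra3 windows and in the first Gabrb2 window, and in 12.4% of all windows. These matches describe the sequence only. They say nothing of which factors bind there.

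Depth ran from 13.9 to 37.4 megacounts assigned to genes. The headers of 2 tables contradict their labels: that of AAV-miR ctrl replicate 3 names SOD and that of non-injected replicate 3 names the control microRNA. Labels were followed, and results are also given without these 2 libraries. Libraries numbered 5 and 6 exist only in the control groups, and at 29.7 to 37.4 megacounts they were deeper than those numbered 1 to 4 (13.9 to 23.1 megacounts). All 8 motoneuron markers, among them Chat and Slc5a7, were detected in every library. Their summed level was 1380 to 2506 CPM (counts per megacount of scaled library size) in AAV-miR SOD1, 2004 to 4562 in AAV-miR ctrl and 2226 to 5288 in non-injected libraries. Their median log2 fold change, AAV-miR SOD1 against both control groups, was -1.06 (8 of 8 with a negative sign, 8 with an unadjusted p under 0.05, 0 with an adjusted p under 0.05), against a median of -0.059 over all 17403 genes tested. Blood-cell markers had the opposite sign: the median of 6 erythroid genes was 1.64 and that of 6 neutrophil genes 1.10. The 6 microglial markers had a median of 0.62 and the 8 astrocyte markers one of -0.28. The 6 oligodendrocyte markers had a median of -0.53, with 6 of 6 negative, and the 4 endothelial markers one of 0.096. The summed level of the erythroid genes was 18940 to 43020 CPM in AAV-miR SOD1, 3108 to 25060 in AAV-miR ctrl and 4976 to 18260 in non-injected libraries. That of the neutrophil genes was 27810 to 75170, 9449 to 63950 and 13580 to 22300 CPM, above that of the motoneuron markers in every library. The number of motoneurons was set at 500 a library, and CPM is relative to all RNA counted in that library. In bulk samples such as these, less RNA per motoneuron and more RNA from other cells therefore cannot be told apart. The part of these marker differences in the results on the GABA-A genes was not tested.

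CPM divided by the kilobases of exon (RPKM) allows the members to be ordered by level. Gabra5 (mean 7.02 RPKM over the 13 libraries) and Gabra2 (6.90) were the highest, and they did not separate: Gabra5 was above Gabra2 in 8 of 13 libraries. Gabrg1 (1.57) and Gabra3 (1.52) followed and also changed places, Gabrg1 being above Gabra3 in 8 of 13. Gabra3 was above Gabrb1 (0.956) in 12 of 13 libraries. Gabrb1 was above Gabrb2 (0.180), and Gabrb2 above Gabrg3 (0.0239), in 13 of 13. The captured cells thus held far more Gabra2 and Gabra5 RNA per length than RNA of the other 5 genes in every group.

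**Figure D1:**
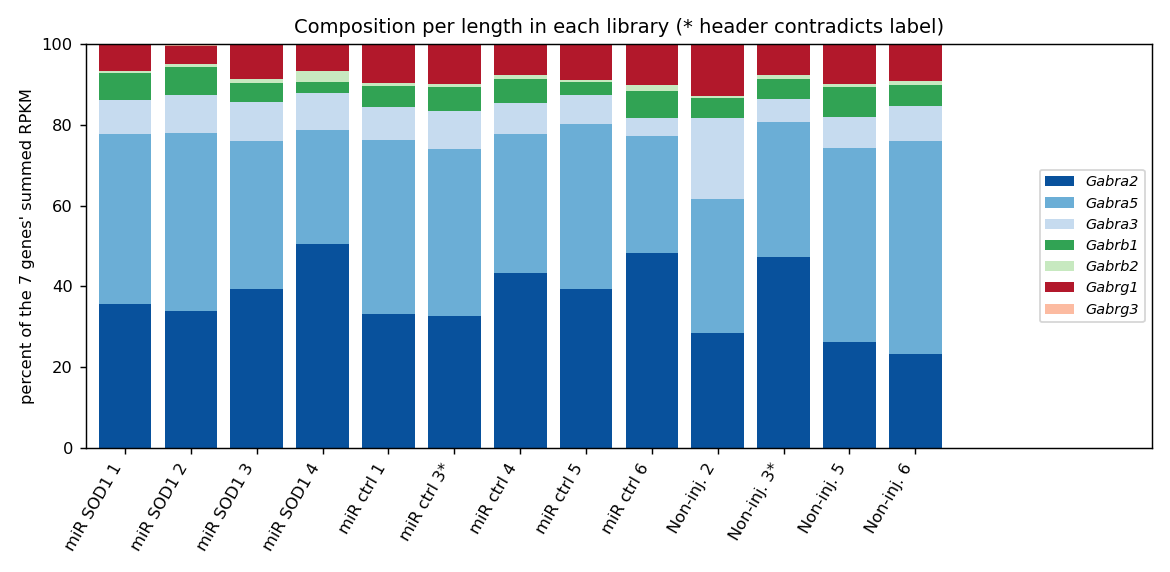
Share of each member in the summed RPKM of the 7 genes, 1 bar per library, with the groups in order from left to right. Gabra2 and Gabra5 fill most of every bar, and the Gabrg1 band spans 4.34 to 8.37% in AAV-miR SOD1, 7.78 to 10% in AAV-miR ctrl and 7.64 to 12.9% in non-injected libraries.

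Among the alpha subunits, Gabra2 encodes alpha 2, which is found at synapses and on the axon initial segment of many neurons. Its level was 26.2, 34.9, 26.4 and 49.9 CPM in AAV-miR SOD1 replicates 1 to 4. It was 32.1, 41.2, 65.1, 92.1 and 83.3 CPM in AAV-miR ctrl replicates 1, 3, 4, 5 and 6, and 32.5, 126.9, 43.3 and 31.01 CPM in non-injected replicates 2, 3, 5 and 6. The groups overlapped, and non-injected replicate 3, whose header contradicts its label, stood far above the other 3 of its group. The fitted log2 difference was -0.87 (SE 0.44) from AAV-miR ctrl and -0.77 (SE 0.46) from non-injected. Without the 2 libraries whose headers contradict their labels, the latter became 0.02 (SE 0.34) and the former -0.93 (SE 0.32), and without non-injected replicate 3 alone the latter was -0.06. Neither difference passed the test (edgeR adjusted p = 0.375 and 0.354).

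Gabra3, on the X chromosome, encodes alpha 3. Its level was 3.21, 5.09, 3.36 and 4.62 CPM in AAV-miR SOD1, 4.07, 6.12, 6.00, 8.73 and 4.03 CPM in AAV-miR ctrl, and 11.8, 7.80, 6.64 and 5.87 CPM in non-injected libraries, in the replicate order given for Gabra2. All AAV-miR SOD1 libraries lay below all non-injected ones, which held for 5.81% of all genes, while they overlapped with AAV-miR ctrl. The log2 fold change was -0.98 (SE 0.33, edgeR adjusted p = 0.147) against non-injected and -0.51 (SE 0.32, adjusted p = 0.471) against AAV-miR ctrl. Without the 2 libraries in doubt these values were -0.93 and -0.44.

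Gabra5 encodes alpha 5, a subunit known mostly from receptors outside synapses. Its level was 12.02, 17.7, 9.57 and 10.8 CPM in AAV-miR SOD1. In AAV-miR ctrl it was 16.3, 20.4, 20.3, 37.3 and 19.5 CPM, and in non-injected libraries 14.8, 34.9, 30.8 and 27.2 CPM. AAV-miR SOD1 replicate 2 overlapped with the lowest library of each control group, and the other 3 lay below all controls. The log2 fold changes were -0.86 (SE 0.30) against AAV-miR ctrl, -1.10 (SE 0.32) against non-injected and -0.98 (SE 0.28) against the mean of both, with edgeR adjusted p = 0.277, 0.140 and 0.101. Leaving out the 2 libraries in doubt gave -0.86 (SE 0.29, adjusted p = 0.209) against both.

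Whether Gabra5 passed the threshold depended on the tool. In DESeq2 its adjusted p was 0.0209 against both sets of controls, where it called 8.5% of all genes, and 0.0348 against non-injected, where it called 5.72%. Limma-voom with sample quality weights gave 0.0385 against both, calling 8.4% of genes. In edgeR the adjusted p was 0.0382 once AAV-miR ctrl replicate 1 was left out, a setting in which 9.84% of genes passed. Gabra5 was the only one of the 5 tested members to pass in any of the 23 alternatives.

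Of the beta subunits, Gabrb1 encodes beta 1. Its level was 8.86, 13.01, 5.50 and 4.99 CPM in AAV-miR SOD1, 9.15, 13.4, 15.8, 13.04 and 21.1 CPM in AAV-miR ctrl, and 10.1, 23.5, 21.5 and 12.2 CPM in non-injected libraries. AAV-miR SOD1 replicates 1, 3 and 4 lay below every control library and replicate 2 lay within their range. The log2 fold change against both control groups was -0.95 (SE 0.33, edgeR adjusted p = 0.124), and -0.79 (SE 0.34) without the 2 libraries in doubt. It was -0.84 (SE 0.35) against AAV-miR ctrl and -1.05 (SE 0.37) against non-injected, with edgeR adjusted p = 0.313 and 0.152.

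Gabrb2, encoding beta 2, was near the limit of counting, with 7 to 62 counts a library. It was at 0.312, 0.576, 0.616 and 2.28 CPM in AAV-miR SOD1, 0.619, 0.916, 1.20, 1.18 and 2.10 CPM in AAV-miR ctrl, and 0.461, 2.16, 1.32 and 1.10 CPM in non-injected libraries. The groups overlapped throughout, and AAV-miR SOD1 replicate 4 held the highest level of all 13. The log2 fold change against both control groups was -0.40 (SE 0.58, edgeR adjusted p = 0.735), and without AAV-miR SOD1 replicate 4 it was -1.29. It was -0.37 (SE 0.63, adjusted p = 0.832) against AAV-miR ctrl and -0.43 (SE 0.66, adjusted p = 0.753) against non-injected, the latter becoming 0.03 without the 2 libraries in doubt.

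Of the gamma subunits, Gabrg1 encodes gamma 1, which in the brain is limited to few regions and is also known from glia. Its level was 4.90, 4.61, 5.78 and 6.64 CPM in AAV-miR SOD1, from 96 to 122 counts. In AAV-miR ctrl it was 9.46, 12.6, 12.1, 21.2 and 17.9 CPM, and in non-injected libraries 15.2, 21.1, 16.6 and 12.3 CPM. All 4 AAV-miR SOD1 libraries lay below all 9 controls, the pattern for which the gene was chosen, and none of the other 6 members had it. It held for 1.23% of all genes tested against both control groups, and all AAV-miR SOD1 libraries lay below all AAV-miR ctrl libraries for 2.46%. As a description, the log2 fold changes were -1.42 (SE 0.27) against AAV-miR ctrl, -1.57 (SE 0.28) against non-injected and -1.50 (SE 0.25) against both, a level 0.355 times that of the controls. Without the 2 libraries in doubt the last value was -1.38 (SE 0.25). Among libraries numbered 1 to 4 it was -1.05 (SE 0.25) against AAV-miR ctrl and -1.71 (SE 0.28) against non-injected.

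Gabrg3, encoding gamma 3, had 0 to 20 counts a library and was the only member that the filter on low counts did not keep. It was at 0.134, 0.912, 0.284 and 0.126 CPM in AAV-miR SOD1, 0.0749 to 0.596 CPM in non-injected libraries and 0 to 0.398 CPM in AAV-miR ctrl. The 0 counts of AAV-miR ctrl replicate 4 allow up to 0.225 CPM, the level of 3 counts there. The groups overlapped, AAV-miR SOD1 replicate 2 was the highest library, and no comparison was fitted for this gene.

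**Figure D2:**
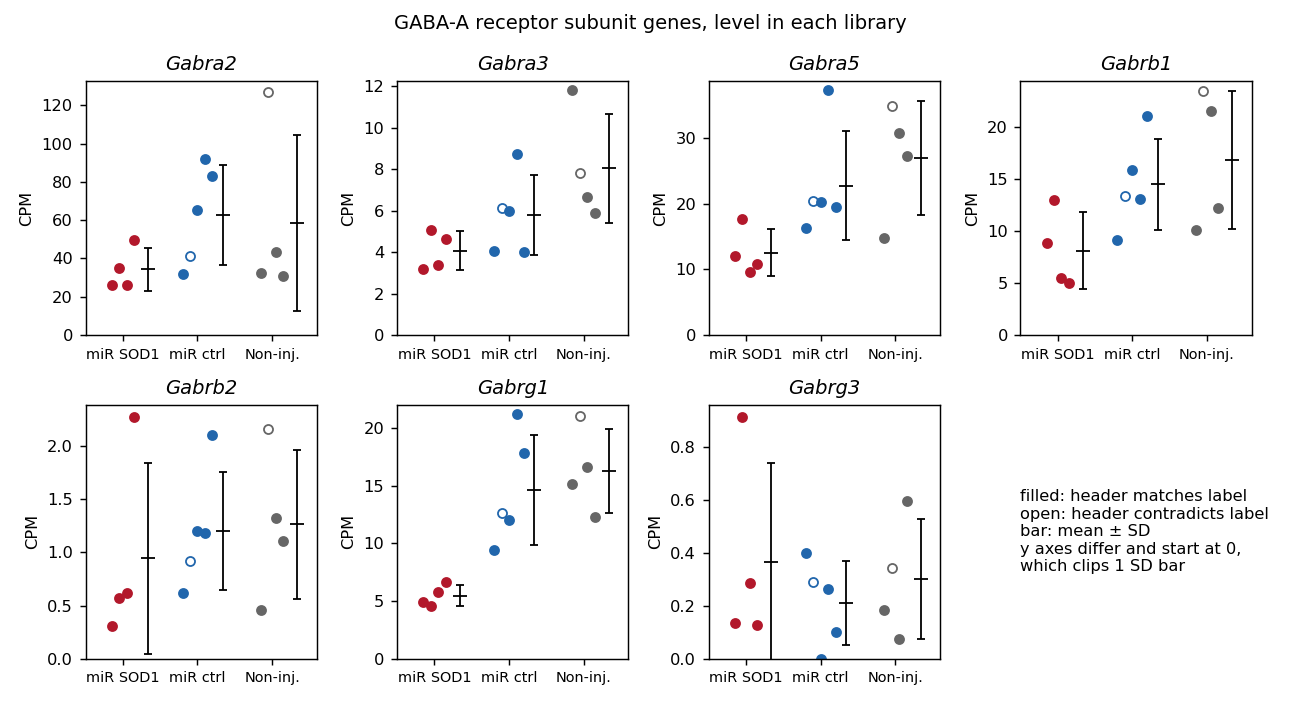
Level of each member in CPM, 1 point per library and 1 panel per gene, by group, with the mean and SD beside the points and the libraries whose header contradicts their label drawn open. The 4 AAV-miR SOD1 points of Gabrg1 lie between 4.61 and 6.64 CPM, below every control point. Those of Gabra3 lie below the non-injected points but overlap with AAV-miR ctrl, and in the other 5 panels AAV-miR SOD1 overlaps with each control group.

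Set side by side, all 6 fitted members had a negative log2 fold change in AAV-miR SOD1 against each control group and against both. Leaving out Gabrg1, which was chosen for it, the median of the other 5 was -0.84 against AAV-miR ctrl, -0.98 against non-injected and -0.82 against both, beside -0.045, -0.086 and -0.059 over all genes. These comparisons share libraries. No member passed an adjusted p of 0.05 in edgeR in any of them, and neither did any other gene: 0 of 17403 (0%) in each. At an unadjusted p under 0.05, 2 of the 5 were lower against AAV-miR ctrl (Gabra5 and Gabrb1), where 8.54% of all genes were. The count was 3 of 5 against non-injected and 3 of 5 against both (Gabra3, Gabra5 and Gabrb1 in each), beside 11.5% and 12.1% of all genes. Without the 2 libraries in doubt it was 3, 2 and 2 of 5, and among libraries numbered 1 to 4 it was 0, 3 and 2. Single libraries also moved it: against AAV-miR ctrl it was 0 without AAV-miR SOD1 replicate 3 and 1 without AAV-miR ctrl replicate 3, 4 or 6. Against both it was 1 without AAV-miR SOD1 replicate 3 and 5 without AAV-miR SOD1 replicate 4. At the same threshold, calls of either sign over all genes were 2529, 3635 and 3870 of 17403 in the same order. Without the 2 libraries in doubt they were 2314, 2258 and 3126 of 17771, and among libraries numbered 1 to 4 891, 2863 and 2588 of 18274. Against AAV-miR ctrl they were 2640 of 17824 without AAV-miR SOD1 replicate 3, and 1591 to 2090 without AAV-miR ctrl replicate 3, 4 or 6. Against both they were 3711 of 17824 without AAV-miR SOD1 replicate 3 and 3613 of 17880 without AAV-miR SOD1 replicate 4. These all-gene counts take either sign, while the member counts take lower ones only.

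**Figure D3:**
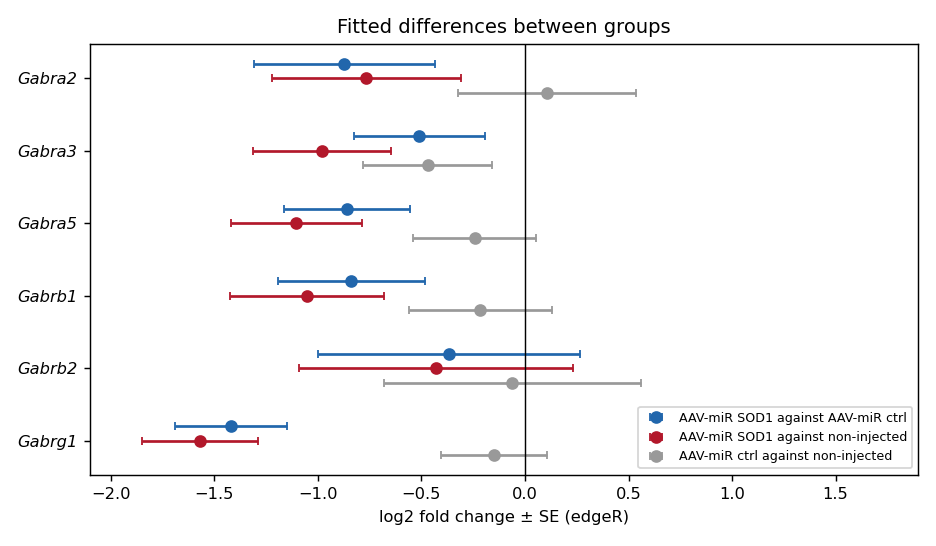
Log2 fold change with its SE for the 6 members kept by the filter, 1 colour per comparison of groups, from edgeR. All values of AAV-miR SOD1 lie left of 0, from -0.37 for Gabrb2 to -1.57 for Gabrg1, while those of AAV-miR ctrl against non-injected lie between -0.47 and 0.11.

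The control vector itself was compared with no injection, a comparison that chose no member. For Gabrg1 the means were 14.6 ± 4.77 CPM (SD, n = 5) in AAV-miR ctrl and 16.3 ± 3.67 CPM (SD, n = 4) in non-injected libraries. Its log2 fold change was -0.15 (SE 0.26, edgeR adjusted p = 1). The other values were 0.11 (SE 0.43) for Gabra2, -0.47 (SE 0.31) for Gabra3, -0.24 (SE 0.30) for Gabra5, -0.22 (SE 0.35) for Gabrb1 and -0.06 (SE 0.62) for Gabrb2, all with an adjusted p of 1. At an unadjusted p under 0.05, 0 of the 6 members and 2.24% of all genes were lower. Differences of the size of these standard errors would not have been detectable with 5 and 4 libraries, and 5 of the 6 directions turn under some alternative, Gabra3 being the exception.

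The make-up of the subunit RNA was compared between groups through shares of counts within the alpha, beta and gamma genes listed, which need no scaling between libraries. The counts were not divided by exon length, which is 7.64 kb for Gabra2 and 2.97 kb for Gabra5. A share therefore compares libraries for the same gene and does not rank genes by level. Receptor protein was not measured. Subunits outside the 7 genes are not part of these shares. Gabra2 took 66.8 ± 6.93% of the alpha counts in AAV-miR SOD1 (SD, n = 4), 67.6 ± 7.23% in AAV-miR ctrl (n = 5) and 58.0 ± 11.6% in non-injected libraries (n = 4). Gabra5 took 25.1 ± 6.32%, 25.7 ± 5.44% and 31.6 ± 10.4%, and Gabra3 took 8.0 ± 0.81%, 6.7 ± 1.96% and 10.5 ± 6.62%. The largest alpha 3 share, 20.0%, was in non-injected replicate 2. Over 17 two-sided exact permutation tests of group means, the lowest p was 0.175 (0.833 after Benjamini-Hochberg adjustment), and it belonged to Gabra2 in AAV-miR ctrl against non-injected.

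Within the beta genes, Gabrb1 took 87.7 ± 13.04% in AAV-miR SOD1, 92.6 ± 1.21% in AAV-miR ctrl and 93.3 ± 1.99% in non-injected libraries. The wide spread of the first group came from replicate 4, at 68.7% beside 89.9 to 96.6% in the other 3. Against both control groups pooled the difference was -5.13 percentage points (exact permutation p = 0.266, n = 4 and 9), and it was 1.22 points without that library. Within the gamma genes, Gabrg1 took 83.5 to 98.1% in AAV-miR SOD1 and 95.4 to 100% in the control libraries, a description that includes the chosen gene.

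Gabrg1 was also set against Slc5a7, the choline transporter of cholinergic neurons and 1 of the motoneuron markers. Slc5a7 itself ran from 152 to 207 CPM in AAV-miR SOD1, 210 to 427 CPM in AAV-miR ctrl and 257 to 589 CPM in non-injected libraries, so its AAV-miR SOD1 range, too, lay below that of the controls. Gabrg1 was at 3.23, 2.23, 3.50 and 3.93% of Slc5a7 in AAV-miR SOD1, 4.50, 4.19, 3.92, 5.19 and 4.19% in AAV-miR ctrl, and 5.90, 3.58, 5.52 and 3.83% in non-injected libraries. On this scale the groups overlapped, with means of 3.22 ± 0.725% (SD, n = 4) and 4.53 ± 0.814% (SD, n = 9) in all controls. For Gabra5 the means were 7.17 ± 1.28% and 7.24 ± 1.81%, and for Gabrb1 4.61 ± 1.70% and 4.54 ± 1.14%. Gabra2 was at 19.9 ± 6.46% and 16.7 ± 4.58%, and Gabra3 at 2.34 ± 0.323% and 2.11 ± 1.02%. Gabrb2, with few counts, was at 0.552 ± 0.536% and 0.344 ± 0.0919%. Its AAV-miR SOD1 values were 0.206, 0.278, 0.373 and 1.35%, the last in replicate 4. The Gabrb2 medians were 0.326% in AAV-miR SOD1 and 0.344% in all controls. Relative to Slc5a7 alone, and as a description with no test, the mean of Gabrg1 lay more than an SD below that of the controls. The means of Gabra2, Gabra3, Gabra5 and Gabrb1 lay within an SD of their control means. The mean of Gabrb2 lay more than an SD above its control mean through replicate 4, while its median lay below the control median. Slc5a7 is only 1 of the 8 motoneuron markers, and no ratio to another marker was taken. Whether Gabrg1 would stand apart from the other members on the scale of a different marker was therefore not tested. The 7 genes summed to 51.5 to 79.3 CPM in AAV-miR SOD1 and 72.1 to 217 CPM in the controls, with AAV-miR ctrl replicate 1 the lowest control.

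**Figure D4:**
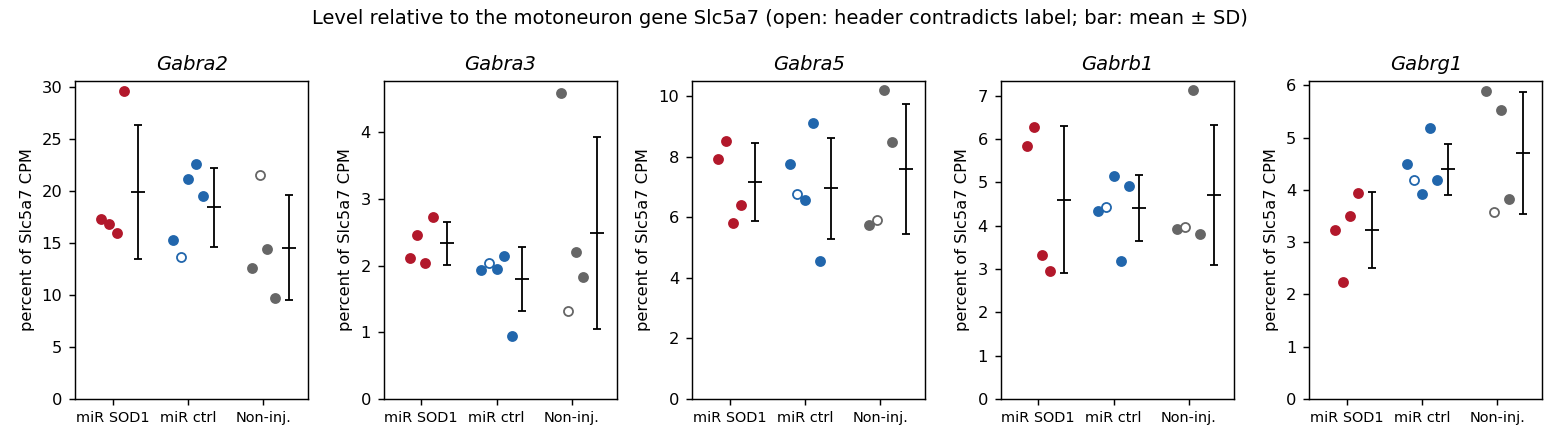
Level of 5 members as a percentage of Slc5a7 CPM in the same library, 1 point per library, by group, with mean and SD and open points for libraries whose header contradicts their label. Gabrg1 is at 2.23 to 3.93% in AAV-miR SOD1 and 3.57 to 5.90% in the controls, while Gabra5 is at 5.80 to 8.54% in AAV-miR SOD1, inside the control range of 4.56 to 10.2%.

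The other genes of GABA signalling were taken from a list of 43, of which 42 passed the filter. Against both control groups, 31 had a negative and 11 a positive log2 fold change (median -0.31, beside -0.059 over all genes). At an unadjusted p under 0.05, 14 of 42 were lower, beside 12.1% of all genes, and 4 of 42 higher, beside 10.2%, and 0 passed after adjustment in edgeR. Without the 2 libraries in doubt the counts were 10 and 4. The lower count was 7 without AAV-miR SOD1 replicate 3, and the higher count was 2 without AAV-miR SOD1 replicate 1 and 1 without replicate 2. Over all genes, calls of either sign were 3870 of 17403 in the main fit and 3126 of 17771 without the 2 libraries in doubt. They were 3711 of 17824, 2201 of 17857 and 3079 of 17772 without AAV-miR SOD1 replicates 3, 1 and 2. Among postsynaptic scaffold and clustering genes, 9 of 9 fitted had a negative sign and 5 an unadjusted p under 0.05, where 12.1% of all genes were lower. Gphn, encoding the scaffold protein gephyrin, ran from 27.9 to 34.5 CPM in AAV-miR SOD1, 31.9 to 53.8 CPM in AAV-miR ctrl and 38.9 to 60.8 CPM in non-injected libraries, a log2 fold change of -0.57 (SE 0.18, edgeR adjusted p = 0.107). Iqsec3, a gephyrin-binding exchange factor, had -0.70 (SE 0.24) and Lhfpl4, a receptor partner needed for its clustering, -0.73 (SE 0.30).

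Among 12 genes of receptor assembly and trafficking, 8 had a negative and 4 a positive sign. Nsf, an ATPase of membrane fusion, had a log2 fold change of -0.97 (SE 0.28, edgeR adjusted p = 0.101), Gabarapl1, of the family that binds gamma subunits, -0.88 (SE 0.26) and Hap1, which takes part in receptor recycling, -0.94 (SE 0.33). Of 7 chloride transport genes, 4 had a negative sign. The exporter gene Slc12a5 ran from 72.1 to 118 CPM in AAV-miR SOD1, 99.4 to 193 CPM in AAV-miR ctrl and 107 to 230 CPM in non-injected libraries (-0.69, SE 0.25, edgeR adjusted p = 0.129). Stk39, a kinase that regulates these transporters, had -0.66 (SE 0.18). Chloride transport and trafficking thus held genes of either sign.

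The 6 genes of GABA-B receptors, the slow metabotropic receptors for GABA, also differed in sign. Gabbr1, a receptor subunit, had a log2 fold change of -0.77 (SE 0.24, edgeR adjusted p = 0.109) and Kctd8, an auxiliary subunit, -0.86 (SE 0.33). The auxiliary subunit Kctd12 had 0.87 (SE 0.30, edgeR adjusted p = 0.122). It ran from 32.6 to 69.3 CPM in AAV-miR SOD1, 19.5 to 49.4 CPM in AAV-miR ctrl and 10.5 to 28.2 CPM in non-injected libraries. AAV-miR SOD1 thus overlapped with AAV-miR ctrl. Of the 8 genes of GABA synthesis, release, uptake and breakdown, 6 had a negative sign and 0 an unadjusted p under 0.05. Aldh5a1 and Abat, enzymes of GABA breakdown, had -0.57 (SE 0.27) and -0.28 (SE 0.19). Gad2, which makes GABA in inhibitory neurons, was at 0 to 2.4 CPM, and the summed level of 5 inhibitory interneuron markers was 8.06 to 27.5 CPM, low beside the motoneuron markers in every library.

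The genes whose log2 CPM followed Gabrg1 most closely over the 13 libraries were Rwdd2a (Pearson r = 0.96), Clstn3 (0.96), Zcchc12 (0.95), Impact (0.94) and Serinc1 (0.94). Over the 9 control libraries alone these values were 0.94, 0.86, 0.89, 0.92 and 0.83. The closest gene was Lrrtm4 for Gabra2 (0.95), Mycbpap for Gabra3 (0.87), Prkag2 for Gabra5 (0.96), Adra1b for Gabrb1 (0.93) and Iglon5 for Gabrb2 (0.92). Among the members themselves, r over 13 libraries was highest for Gabra5 with Gabrb1 (0.81) and lowest for Gabra3 with Gabrb2 (0.17). Over the 9 controls these were 0.54 and -0.29, and the highest was Gabrb1 with Gabrb2 (0.90, beside 0.38 over 13). Gabrg1 and its genomic neighbour Gabra2 had r = 0.70, or 0.76 over the 9 controls. These points share library depth, motoneuron content and group, and the values are descriptions.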

How the data were processed

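RNA was amplified with a low-input full-length cDNA kit and tagmented, per the labels' protocols. The deposited values are raw counts of reads per gene. Per the submitters' processing notes, the authors used cutadapt 1.8, STAR 2.5.2b, HTSeq 0.6.1 and GRCm38. The annotation and the strand setting are not given in the sources used here. The 5 summary rows of each table (for example ambiguous reads) stayed out of library sizes. Symbols, coordinates and exon lengths came from GENCODE M21, which named 48349 of 48709 identifiers, and promoters from RefSeq.

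Groups came from the titles. Genes were kept by edgeR's filterByExpr (minimum count 10, minimum total 15), which left 17403, with TMM scaling of libraries. Groups were compared by edgeR 4.0.16's quasi-likelihood F test (R 4.3.3) over all 13 libraries, with Benjamini-Hochberg adjustment over all genes, and it was tested on simulated data. Standard errors are log2 fold changes over the root of F. CPM values use TMM-scaled library sizes, and correlations use log2 CPM with a prior count of 2. Class shares were compared by exact permutation tests. With 4 or 5 libraries a group, the precision of a fold change is its SE.

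Named genes are the 7 members, up to 3 genes of each role group with the smallest unadjusted p against both control groups, the 5 genes closest to Gabrg1 and the closest to each other member. The members and lists were chosen with earlier results of these data known. Alternatives were other scalings, no filter, DESeq2 1.42.0, limma-voom (limma 3.58.1), only the groups compared, the replicate block, an exchange of the 2 libraries with contradicting headers, libraries numbered 1 to 4, each library left out and, chosen after seeing the data, both doubtful libraries left out. Human SOD1, other subunit genes of the family and some genes the naming rule picked are not reported here.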

Additional observations from a re-analysis of the deposited data

Results flagged for a closer look

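Of 36 groups of 4 or 5 libraries whose CPM and class shares were checked for a library far from the rest, 3 held one, and chance alone marks about 1 in 20 such groups. Gabra2 was at 126.9 CPM in non-injected replicate 3, whose header contradicts its label, against 31.01 to 43.3 CPM in the other 3 libraries of its group. Gabra5 was at 37.25 CPM in AAV-miR ctrl replicate 5, against 16.3 to 20.4 CPM in the other 4. Gabrb2 was at 2.276 CPM in AAV-miR SOD1 replicate 4, against 0.312 to 0.616 CPM in the other 3.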

How the results depend on the processing

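Gabra2, Gabra3, Gabra5, Gabrb1 and Gabrb2 kept a negative log2 fold change in AAV-miR SOD1 against both control groups under all alternatives run. For Gabrg1 the values ran from -1.60 to -1.30 in that comparison. Since the gene was chosen for its low level in the same libraries, its sign was largely set by the choice. The Gabrg1 range is a description and no support for the difference. The number of members past an adjusted p of 0.05 was 0 in edgeR. It was 1 (Gabra5) in DESeq2 against both control groups and against non-injected, and 1 in limma-voom against both. Leaving out each library in turn gave 0 to 1 against both. Some signs turned. Against non-injected, Gabra2 was 0.021 and Gabrb2 0.027 without both doubtful libraries. Gabrb2 was 0.046 against AAV-miR ctrl among libraries numbered 1 to 4.

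For AAV-miR ctrl against non-injected, the header exchange gave 0.14 for Gabra5, 0.21 for Gabrb1, 0.60 for Gabrb2 and 0.21 for Gabrg1. Leaving out both doubtful libraries gave 0.041 for Gabrb1, 0.42 for Gabrb2 and 0.062 for Gabrg1. Gabra2 was -0.78 among libraries numbered 1 to 4, and Gabrb2 was 0.082 in limma-voom. With each library left out, Gabra2 ran from -0.10 to 0.82 and Gabrb2 from -0.35 to 0.32. The Gabra3 share difference of AAV-miR SOD1 from all controls was 0.12 points per length, and with each library left out it ran from -0.90 to 1.12 points, and that of Gabrb1 from -8.09 to 1.22. The causes were not tested. Counts of listed genes at an unadjusted p under 0.05 moved further: among 42 GABA signalling genes, those lower against both control groups ran from 5 to 16. Over all genes, calls of either sign in that comparison ran from 1927 of 17403 with the replicate block to 5186 of 31373 with no filter. Limma-voom called fewer genes than the latter but a larger share, 4892 of 17403.

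Replicate numbers are shared between groups. Over 8 same-numbered pairs, deviations from group means correlated between -0.19 and 0.24, 3 of them above 0.1, and 3 of 13 libraries correlated best with their own number, so the numbers were not taken to pair samples. With the replicate block, 0 members passed in any comparison, Gabrg1 was -1.30 and Gabra5 -0.72 against both control groups, and the tested members lower at an unadjusted p under 0.05 were 1 of 5 in place of 3, and 0 of 5 in place of 2 against AAV-miR ctrl. Calls of either sign over all 17403 genes were 1927 with the block in place of 3870 against both control groups. Against AAV-miR ctrl they were 1535 in place of 2529. Depth limits Gabrb2 and Gabrg3 most, and the limit that 3 counts set covers counting error only.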
